A study of Solanum tuberosum with 12 samples.

Results

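A group of 125 genes was read at a low level in potato shoot tips that recovered from cryopreservation in darkness, and at a higher level when recovery took place under light. The choice held the level under both lights to a window around that of never-frozen tips. Within this window, the level centred near that of never-frozen tips under cool white light and was lower under LEDs. Under both lights, 25 of the 125 genes were within 0.8 to 1.25 times the never-frozen level. The genes were chosen by their mean reads scaled to library size (CPM, a gene's count over the library's total, multiplied by 1000000) in the 4 groups of libraries. A gene needed at least 5 CPM in non-cryopreserved tips, at most 0.25 times that level in darkness, and from 0.5 to under 1.5 times that level under each light, with less than 2 times as much under cool white light as under LEDs. Of the 39027 genes in the count tables, 14808 reached 5 CPM in non-cryopreserved tips and 125 met every condition. Since the choice used all 4 group means, the differences between groups given here for these genes are a description and not a test.

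All tips were of the potato (Solanum tuberosum) genotype Agrie Dzeltenie and came from in vitro plants 3.5 weeks old. In 3 groups they were treated with 10% dimethyl sulfoxide (DMSO), a cryoprotectant, frozen in droplets, held for 1 h in liquid nitrogen, rewarmed, and kept for 48 h in the dark on a medium with zeatin riboside, gibberellic acid and indole acetic acid. They then stayed dark for a further 16 h, or spent 16 h under diode lamps (LEDs) with 90% of the light red and 10% blue, or 16 h under cool white fluorescent tubes, both at 40 µmol per square metre per second. The non-cryopreserved tips had 16 h of cool white light, also at 40 µmol per square metre per second. The labels do not say whether they had the dark period or the hormone medium. Each group had 3 biological replicates of 10 pooled tips. No library was made at the end of the 48 h, so these data give the end levels in darkness and in light and do not show a loss followed by a return.

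Plants read light through photoreceptors, among them phytochromes for red and far-red light and cryptochromes and phototropins for blue light. In darkness, PHYTOCHROME INTERACTING FACTOR proteins and the COP1 ubiquitin ligase hold back the light programme, which includes the genes of photosynthesis, chlorophyll synthesis and plastid development. Light removes this brake and lets activators such as HY5 accumulate, as worked out mainly in Arabidopsis. None of these names can be attached to the 125 genes. The count tables pair their identifiers with no name, and 0 of the 39027 identifiers matched the RefSeq gene table used here, so the genes are described by identifier and by behaviour, no sequence is shown, and the expected cell types could not be checked against markers.

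Libraries held from 6342324 to 10572258 counts. LED replicate 3 stood apart from the other LED libraries over the 125 genes and is described below, so LED values are given with and without it. In bulk tips, fewer cells of a type and less RNA per cell cannot be told apart.

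Together the 125 genes took 0.0843%, 0.0930% and 0.0957% of the reads in the dark libraries. Their share was 0.443%, 0.400% and 0.272% in the LED libraries, 0.481%, 0.515% and 0.533% in the cool white libraries, and 0.522%, 0.514% and 0.463% in the non-cryopreserved libraries. The dark libraries were below all others, and the cool white and non-cryopreserved libraries overlapped. LED replicates 1, 2 and 3 were each lower than every cool white and non-cryopreserved library. The summed level was 910 ± 59.3 CPM in darkness, 3718 ± 890 CPM under LEDs, 5097 ± 265 CPM under cool white light and 4997 ± 317 CPM in non-cryopreserved tips (SD, n = 3 each). The spread under LEDs was thus wider than in any other group.

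**Figure D1:**
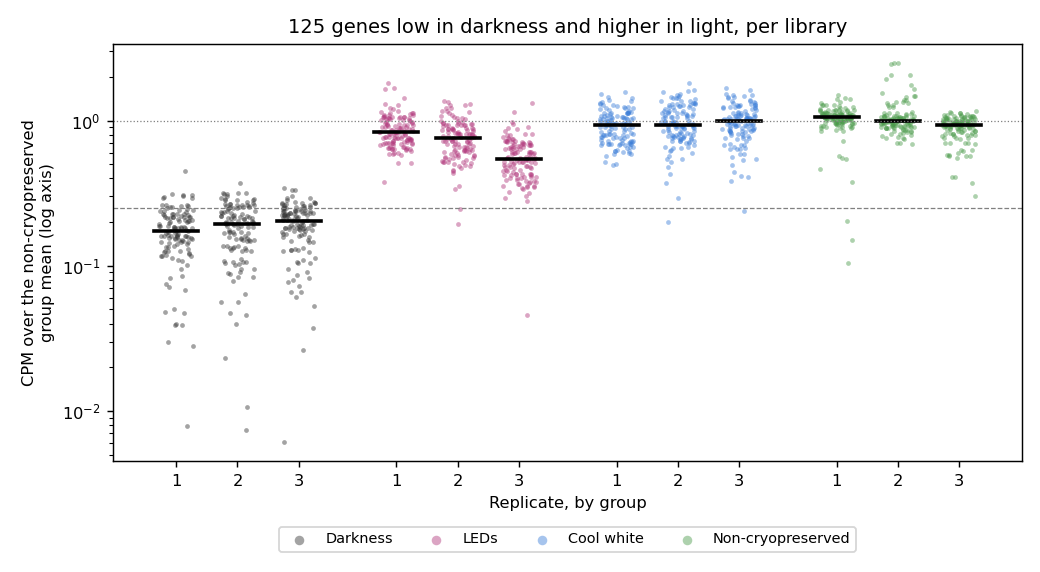
Level of each of the 125 genes in each library, as its CPM over the mean CPM of the non-cryopreserved group (log axis), with points for genes, a black bar for the median of a library, a dotted line at 1 and a dashed line at the threshold of 0.25. Medians lie from 0.175 to 0.203 in darkness, at 0.828, 0.755 and 0.540 under LEDs, at 0.926, 0.935 and 1.00 under cool white light and at 1.05, 0.998 and 0.930 in non-cryopreserved tips.

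The 125 genes covered a wide range of levels. In non-cryopreserved tips they ran from 5.03 to 297 CPM with a median of 23.7 CPM. Between 5 and 10 CPM lay 26 genes, 68 lay between 10 and 50 CPM, 21 between 50 and 100 CPM, and 10 at 100 CPM or more. The median ratio of darkness to non-cryopreserved tips was 0.186 in the lowest of these 4 classes, then 0.200, 0.200 and 0.205 in the classes above it. These medians lay close together, but the rule set the same upper limit on this ratio in every class. Their closeness therefore cannot show whether the dark ratio depends on abundance. Reads behind the dark values were few for some genes, with a median of 84 over the 3 dark libraries, a lowest sum of 11, and 8 genes under 20, but no gene had a library without a read.

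The most abundant gene was PGSC0003DMG400004355. Its level was 54.0, 45.7 and 52.1 CPM in the dark libraries, 358, 327 and 193 CPM under LEDs, 382, 392 and 402 CPM under cool white light, and 298, 320 and 274 CPM in non-cryopreserved tips. Every cool white library was above every non-cryopreserved library, and the LED libraries fell on both sides of the non-cryopreserved ones, with replicate 3 at the low end. The second, PGSC0003DMG400011530, had 32.1, 37.0 and 44.8 CPM in darkness, 279, 315 and 168 CPM under LEDs, 350, 385 and 370 CPM under cool white light and 248, 257 and 231 CPM without cryopreservation. Here too every cool white library was above every non-cryopreserved library and LED replicate 3 was below them. Its LED mean of 254 CPM was above the non-cryopreserved mean of 245 CPM, while that of the first gene, 293 CPM, was below its 297 CPM. Its cool white mean, at 1.50 times the non-cryopreserved mean, was the highest such ratio of the 125 and lay just inside the upper limit of the rule.

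The dark level was close to the threshold for many of the 125. Of them, 61 had from 0.2 to 0.25 times the non-cryopreserved level, 36 from 0.15 to under 0.2, 18 from 0.1 to under 0.15, 6 from 0.05 to under 0.1 and 4 under 0.05. The median ratio was 0.200, or a level 5.004-fold lower in darkness, where the median over the 14808 genes at 5 CPM or more was a ratio of 0.950. Against the LED mean, the dark level was 3.82-fold lower at the median, and against the cool white mean 5.08-fold lower. A threshold of 0.125 in darkness would have kept 17 genes and one of 0.333 would have held 266.

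PGSC0003DMG400017556 stood far below the rest in darkness. Its dark libraries held 0.943, 0.887 and 0.731 CPM, from 19 reads in all. It had 131, 125 and 72.5 CPM under LEDs, 135, 162 and 147 CPM under cool white light and 149, 105 and 106 CPM in non-cryopreserved tips. The SD of the dark libraries was 0.110 CPM (n = 3), and both lights overlapped the non-cryopreserved range. The dark mean was 140.3-fold lower than the non-cryopreserved mean. Among genes at 20 CPM or more without cryopreservation, the next-lowest dark ratio, 0.0436 or 23.0-fold lower, was that of PGSC0003DMG400006442. It had 0.943, 0.253 and 1.90 CPM in darkness, 18.0, 17.0 and 13.1 CPM under LEDs, 16.8, 19.0 and 20.8 CPM under cool white light, and 30.4, 18.7 and 22.0 CPM in non-cryopreserved tips. Its LED libraries were all below the non-cryopreserved ones, and its cool white libraries overlapped them. Its log2 ratio of darkness to non-cryopreserved tips was -4.39, but -5.09 without dark replicate 3 and -3.97 without dark replicate 2.

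At the other edge, PGSC0003DMG400029432 had the highest dark ratio, 0.24969, just inside the threshold. It had 7.01, 5.19 and 7.75 CPM in darkness, 24.4, 22.2 and 14.2 CPM under LEDs, 21.5, 21.1 and 20.3 CPM under cool white light and 24.6, 26.4 and 28.9 CPM in non-cryopreserved tips. Just outside, PGSC0003DMG400002146 had a ratio of 0.25053, with 10.2, 8.87 and 8.78 CPM in darkness, 31.1, 34.0 and 19.2 CPM under LEDs, 37.3, 41.1 and 41.5 CPM under cool white light and 39.7, 35.5 and 36.1 CPM without cryopreservation. In both genes the dark libraries were below the other 9. Around the other limits of the rule, the nearest gene inside and the nearest outside had ratios of 0.5017 and 0.4993 for cool white light at its lower limit, 1.4995 and 1.5028 at its upper limit, and 0.5040 and 0.4965 for LEDs at the lower limit. The highest LED ratio inside was 1.36, and no gene failed on the upper LED limit alone. The lower LED limit alone kept out 48 genes, against 8 for the lower and 11 for the upper cool white limit and 5 for the limit on cool white over LEDs. The nearest values of that last ratio were 1.90 inside and 2.09 outside, and for the level in non-cryopreserved tips they were 5.03 CPM inside and 4.90 CPM outside.

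**Figure D2:**
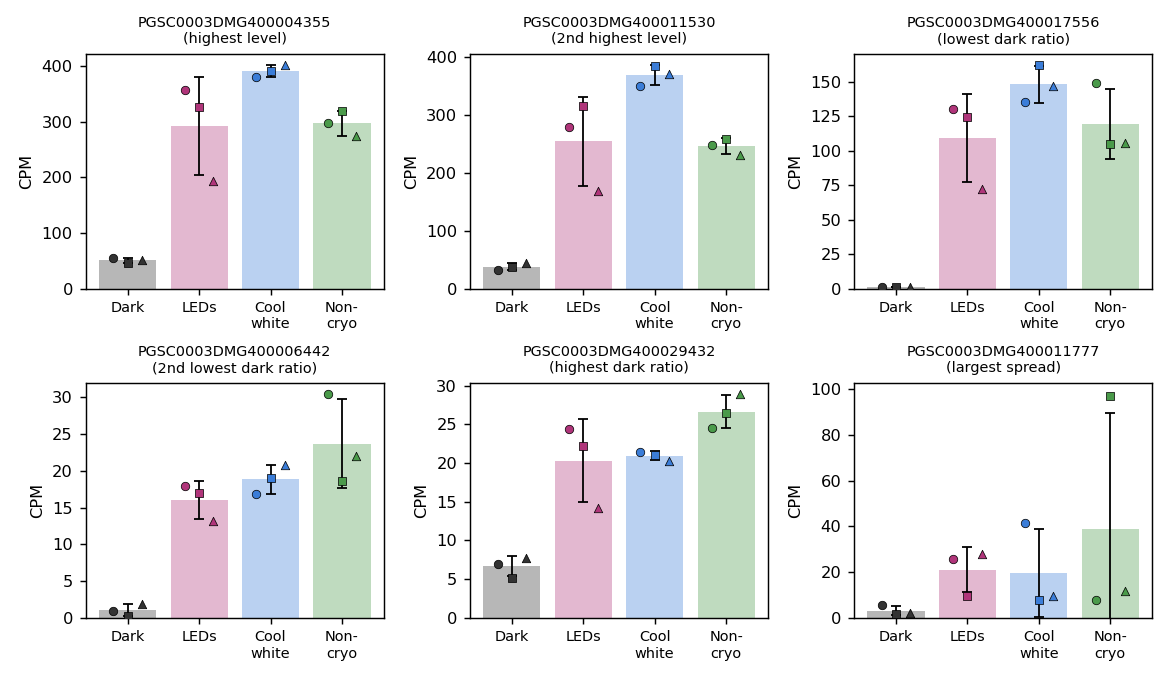
CPM in each of the 12 libraries (circle, square and triangle for replicates 1, 2 and 3) with group means (bars) and SD (error bars, n = 3) for 6 of the 125 genes, chosen for level, for dark ratio and for spread. In the panel of the lowest dark ratio, the dark mean is 0.854 CPM against 120 CPM in non-cryopreserved tips, and in that of the largest spread 1 non-cryopreserved library, at 97.2 CPM, stands far above the other 2.

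Dark and other libraries rarely overlapped. All 3 dark libraries were below all 9 others for 121 of the 125 genes, where 8.4% of the 19920 genes with enough reads to be tested showed this, and the rule itself makes such a pattern likely. The exceptions were PGSC0003DMG400006692, PGSC0003DMG400012294, PGSC0003DMG401031741 and PGSC0003DMG400003666, the last of them named after its values were seen. PGSC0003DMG400003666 had 1.75, 4.43 and 2.05 CPM in darkness, 8.23, 13.6 and 8.32 CPM under LEDs, 14.99, 7.81 and 13.96 CPM under cool white light and 1.26, 29.9 and 4.95 CPM in non-cryopreserved tips. Its non-cryopreserved replicate 1 was below all dark libraries, and replicate 2 alone carried the group mean.

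In edgeR's quasi-likelihood test across 19920 genes, with an adjusted p under 0.05 as the threshold, all 125 genes passed the filter on low counts. The test called 125 of them lower in darkness than without cryopreservation, where 27.6% of all genes were called lower. It called 118 lower in darkness than under LEDs (7.17% of all genes) and 119 lower than under cool white light (10.4% of all genes). These contrasts are those the rule used or fixes, so the counts describe only how firmly the chosen differences stood out from the spread between libraries.

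The level under cool white light centred near that of non-cryopreserved tips. The median ratio of the 2 group means was 0.953, with quartiles of 0.788 and 1.143, and 53 of the 125 genes were above the non-cryopreserved mean. Scaling by TMM factors, which correct for differences in library composition, put 47 of them above it, and DESeq2 size factors put 42 above it, as the median log2 ratio of all 14808 genes moved to -0.06 with the size factors, against 0.04 with library totals. From 0.8 to under 1.25 times the non-cryopreserved level lay 74 genes, 29 lay from 0.6 to under 0.8, 7 below 0.6 and 15 at 1.25 or more. Cool white and non-cryopreserved libraries overlapped for 90 genes, were all below for 23 (24.1% of all tested genes) and all above for 12 (35.7% of all tested genes).

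The edgeR test called 13 of the 125 lower (21.5% of all genes) and 5 higher (27.8% of all genes) under cool white light than without cryopreservation. A window of 0.5 to 1.5 keeps out most large differences, so nothing is read from these shares. The total of 18 (49.3% of all genes were called in either direction) changed to 11 without non-cryopreserved replicate 1, to 9 and 6 without cool white replicates 1 and 2, and to 29 without LED replicate 3, a library of neither group.

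PGSC0003DMG400016482 had the second-highest ratio of cool white to non-cryopreserved tips, 1.46. It stood at 15.2, 20.6 and 18.9 CPM in darkness, 86.2, 94.1 and 58.8 CPM under LEDs, 108, 131 and 120 CPM under cool white light and 79.6, 87.1 and 79.1 CPM in non-cryopreserved tips. All cool white libraries were above all others, and LED replicates 1 and 2 were close to the non-cryopreserved level. The lowest ratio, 0.502, was that of PGSC0003DMG400011777. It had 5.52, 1.77 and 2.05 CPM in darkness, 25.5, 9.66 and 27.9 CPM under LEDs, 41.5, 7.81 and 9.31 CPM under cool white light and 7.88, 97.2 and 11.8 CPM in non-cryopreserved tips. The non-cryopreserved mean rested on replicate 2, and without it the log2 ratio of cool white to non-cryopreserved tips was 0.98 in place of -0.99. Without cool white replicate 1 it was -2.17.

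PGSC0003DMG400028620, with the next-lowest ratio of 0.513, was steadier. Its libraries had 4.18, 3.93 and 3.07 CPM in darkness, 52.8, 43.8 and 41.3 CPM under LEDs, 42.7, 39.6 and 45.2 CPM under cool white light, and 98.5, 71.6 and 78.6 CPM without cryopreservation. Both lights were below every non-cryopreserved library and above every dark one, an intermediate level.

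Under LEDs the level was lower. The rule held this ratio to the same window, and over the 14808 genes at 5 CPM or more, not held to it, the median was 1.00. For the 125 genes the median ratio to non-cryopreserved tips was 0.702, with quartiles of 0.582 and 0.857, and 7 of the 125 genes were above the non-cryopreserved mean. Genes from 0.5 to under 0.6 numbered 34, those from 0.6 to under 0.8 numbered 50, and 41 had 0.8 or more. Without LED replicate 3 the median over the same genes was 0.794, and 21 of them were above the non-cryopreserved mean. LED libraries were all below the non-cryopreserved ones for 57 genes (24.7% of all tested genes), all above for 1 (31.5% of all tested genes) and overlapped for 67.

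edgeR called 63 of the 125 lower under LEDs than without cryopreservation (23.3% of all genes) and 0 higher (27.3% of all genes, with 50.6% called in either direction). At an unadjusted p under 0.05 it gave 72 lower (26.2% of all genes) and 1 higher (30.1% of all genes). DESeq2 called 65 lower (19.6% of the genes it tested) and 0 higher (21.3% of them). The 63 became 41 without LED replicate 3, when 1 was called higher, and 40 without non-cryopreserved replicate 1. The rule used both means of this contrast, so these counts are a description and nothing is read from the shares.

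The highest LED ratio, 1.36, belonged to PGSC0003DMG400024344, with 3.91, 2.66 and 4.97 CPM in darkness, 85.6, 61.0 and 46.3 CPM under LEDs, 65.5, 62.6 and 60.8 CPM under cool white light and 49.98, 44.96 and 47.4 CPM without cryopreservation. LED replicate 3 lay within the non-cryopreserved range while the other LED libraries exceeded it. PGSC0003DMG400013334 followed with 1.24, and had 2.29, 1.77 and 6.44 CPM in darkness, 27.5, 30.8 and 25.8 CPM under LEDs, 25.6, 32.2 and 32.8 CPM under cool white light and 24.6, 19.4 and 23.8 CPM in non-cryopreserved tips. It was the gene whose LED libraries were all above the non-cryopreserved ones.

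At the low end, PGSC0003DMG400008300 had an LED ratio of 0.504, from 2.42, 1.27 and 1.02 CPM in darkness, 5.58, 4.60 and 3.95 CPM under LEDs, 5.31, 2.73 and 7.87 CPM under cool white light and 9.78, 12.4 and 5.86 CPM in non-cryopreserved tips. Its cool white libraries spanned the LED values and overlapped the non-cryopreserved ones. PGSC0003DMG401031741 also had 0.504, with 0.269, 0.760 and 0.731 CPM in darkness, 6.53, 3.53 and 0.312 CPM under LEDs, 4.11, 5.34 and 2.62 CPM under cool white light and 3.78, 11.3 and 5.47 CPM in non-cryopreserved tips. LED replicate 3 was within its dark range, with the other LED libraries above it. Its log2 ratio of LEDs to non-cryopreserved tips was -0.97, but -1.78 without LED replicate 1, -0.44 without LED replicate 3 and -0.41 without non-cryopreserved replicate 2.

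**Figure D3:**
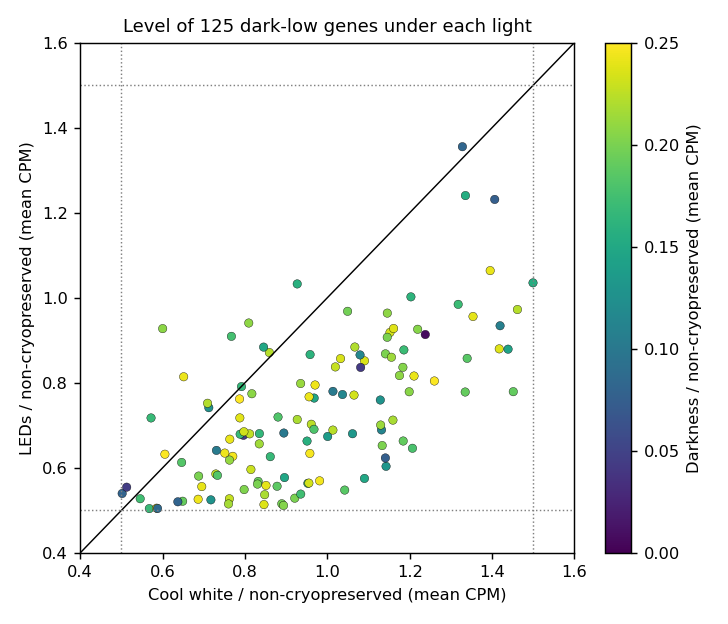
Mean level under LEDs (y axis) against mean level under cool white light (x axis), each over the mean level in non-cryopreserved tips, for the 125 genes, coloured by the dark ratio. Dotted lines mark the limits of 0.5 and 1.5 and the diagonal marks equal levels, and 111 points lie below it.

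The LED mean was below the cool white mean for 111 of the 125 genes, with a median ratio of LEDs to cool white of 0.766. Over the 14808 genes at 5 CPM or more it was below for 53.2%, with a median ratio of 0.988. Without LED replicate 3 it was below for 97 of the 125, with a median of 0.852, against 52.3% and 0.991 over the 14808. All LED libraries were below all cool white libraries for 59 genes (13.3% of all tested genes), and 0 genes had the reverse (9.08% of all tested genes). edgeR called 6 genes lower (1.06% of all genes) and 0 higher (0.377% of all genes, with 1.44% called in either direction) under LEDs than under cool white light. At an unadjusted p under 0.05 the counts were 53 lower (9.94% of all genes) and 0 higher (7.21% of all genes). DESeq2 called 19 lower (2.64% of the genes it tested) and 0 higher (1.96% of them). The count of 6 was 2 without non-cryopreserved replicate 3, without cool white replicate 1, without LED replicate 2 or without LED replicate 3, was 0 without cool white replicate 2 or 3, and was 15 without LED replicate 1. The rule bounds this ratio on both sides, directly for cool white over LEDs and through the shared window, so these are descriptions.

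The lowest ratio of LEDs to cool white light was that of PGSC0003DMG400008639, at 0.525. It had 1.48, 3.67 and 1.90 CPM in darkness, 8.89, 7.20 and 4.78 CPM under LEDs, 10.7, 14.3 and 14.7 CPM under cool white light and 15.3, 12.04 and 10.8 CPM in non-cryopreserved tips. PGSC0003DMG400018446, at 0.527, had 4.18, 2.53 and 3.95 CPM in darkness, 14.2, 16.9 and 10.2 CPM under LEDs, 27.1, 26.6 and 24.6 CPM under cool white light and 26.5, 18.3 and 26.9 CPM in non-cryopreserved tips. In both, the cool white and non-cryopreserved libraries overlapped and all LED libraries lay below both groups and above darkness. Without LED replicate 3 their ratios were 0.607 and 0.596.

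The highest ratio, 1.55, was that of PGSC0003DMG400006692. It had 2.16, 0.760 and 1.61 CPM in darkness, 8.04, 2.61 and 9.67 CPM under LEDs, 7.43, 2.73 and 2.98 CPM under cool white light and 1.104, 17.8 and 2.99 CPM in non-cryopreserved tips, and each light group overlapped the other. Its log2 ratio of LEDs to cool white light was 0.62, but 1.22 without cool white replicate 1 and 0.27 without LED replicate 3. PGSC0003DMG400032094, with 1.254, had 2.56, 0.887 and 1.90 CPM in darkness, 7.19, 5.52 and 10.1 CPM under LEDs, 6.50, 5.47 and 6.20 CPM under cool white light and 4.89, 20.5 and 6.38 CPM in non-cryopreserved tips. In both, most of the non-cryopreserved sum came from replicate 2. Non-cryopreserved replicate 2 held over 0.5 of the summed CPM of its group for 9 of the 125 genes, while replicates 1 and 3 did so for 0. Dark replicates 1, 2 and 3 did so for 6, 4 and 5 genes, LED replicate 1 for 5 and cool white replicate 1 for 3. The share over all genes was not computed.

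The rule used only group means, but each mean contains its libraries, so the variation within groups is not independent of the choice. LED replicate 3 was the lowest LED library for 107 of the 125 genes (85.6%), against 41.8% of the 14808 genes at 5 CPM or more. It was below the mean of the other 2 LED libraries for 117 genes, at a median of 0.657 times that mean, where the median over the 14808 genes was 0.968. LED replicate 1 was the highest of its group for 87 of the 125 genes (69.6%), against 42.9% of the 14808. LED replicate 3 fell under 0.5 times the non-cryopreserved mean for 50 genes, LED replicate 2 for 11 and LED replicate 1 for 1.

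LED replicate 3 was above all dark libraries for 123 of the 125 genes, at a median of 2.81 times the dark mean, against 3.97 times in LED replicate 2 and 4.39 times in LED replicate 1. In the cool white libraries the medians were 4.71, 4.93 and 5.22 times the dark mean. The rule sets both light means above the dark mean and so makes this pattern likely. The share over all genes was not computed. LED replicate 3 thus held an intermediate level, with 9614471 counts, the second-largest total of the 12. Any part of depth, handling or sampling in its lower level was not tested.

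**Figure D4:**
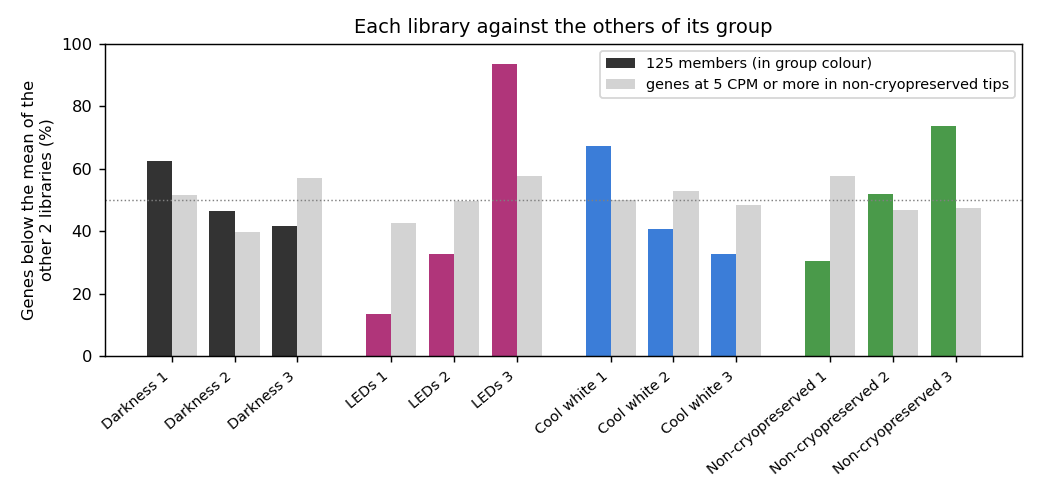
Share of genes whose CPM in a library was below the mean of the other 2 libraries of its group, for the 125 genes (coloured bars) and for the 14808 genes at 5 CPM or more in non-cryopreserved tips (grey bars), with a dotted line at 50%. LED replicate 3 reaches 93.6% for the 125 genes against 57.7% for the 14808, and non-cryopreserved replicate 3 reaches 73.6% against 47.4%.

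Smaller shifts of the same kind were seen in the other groups. Non-cryopreserved replicate 3 was below the mean of its group's other libraries for 73.6% of the 125 genes, at a median of 0.898 times that mean, and cool white replicate 1 was below for 67.2%, at 0.917 times. In darkness the medians stayed between 0.916 and 1.06. The within-group SD of log2 CPM had a median over the 125 genes of 0.31 in darkness, 0.41 under LEDs, 0.17 under cool white light and 0.18 in non-cryopreserved tips, against 0.14, 0.17, 0.12 and 0.14 over the 14808 genes in the same order. These sets were not matched on level, and the rule gave the 125 genes a low level in darkness, with a median of 3.82 CPM. Any part of low counts in their wider spread was not tested. The gene-wise biological coefficient of variation fitted by edgeR had a median of 16.6% over the 125 genes and 12.3% over all genes tested.

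Among genes at 20 CPM or more without cryopreservation, PGSC0003DMG400023333 and PGSC0003DMG402012981 varied least between replicates. PGSC0003DMG400023333 had 6.06, 5.95 and 6.29 CPM in darkness, 20.4, 16.1 and 13.3 CPM under LEDs, 24.5, 23.8 and 24.1 CPM under cool white light and 30.0, 31.4 and 29.4 CPM in non-cryopreserved tips. Its 4 groups did not overlap and stood in the order of darkness, LEDs, cool white light and non-cryopreserved tips. PGSC0003DMG402012981 had 6.33, 7.60 and 6.87 CPM in darkness, 24.7, 23.3 and 19.8 CPM under LEDs, 26.8, 26.6 and 29.3 CPM under cool white light and 30.0, 28.9 and 26.4 CPM in non-cryopreserved tips, where cool white and non-cryopreserved libraries overlapped. The widest spread was that of PGSC0003DMG400011777, described above, and of PGSC0003DMG400012294. PGSC0003DMG400012294 had 14.4, 4.05 and 2.93 CPM in darkness, 54.0, 6.28 and 12.5 CPM under LEDs, 36.7, 17.6 and 14.3 CPM under cool white light and 28.7, 49.6 and 18.5 CPM in non-cryopreserved tips, with replicate 1 the highest library in each of the 3 cryopreserved groups.

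The 125 genes belong to a larger set that was low in darkness. Of the 14808 genes at 5 CPM or more, 426 had a dark mean at or below 0.25 times the non-cryopreserved mean. Under both lights 195 of these, or 45.8%, were below 0.5 times that mean, and 130, or 30.5%, were from 0.5 to under 1.5 times. The 130 include the 125 genes and 5 others with at least 2 times as much under cool white light as under LEDs. A further 63 genes were in that window under cool white light and below it under LEDs, against 8 for the reverse. The remaining 30 were at 1.5 times or more under cool white light, 5 of them also under LEDs.

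**Figure D5:**
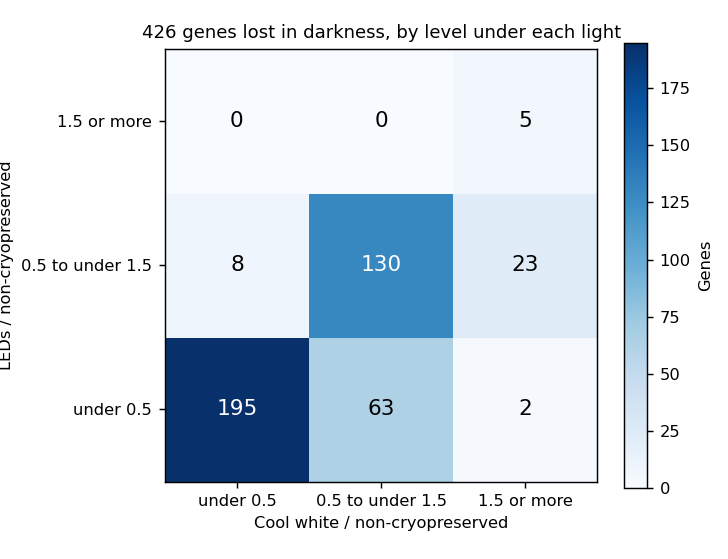
Numbers of the 426 genes whose dark mean was at most 0.25 times the non-cryopreserved mean, by their level under LEDs (rows) and under cool white light (columns) relative to non-cryopreserved tips. The centre cell of 130 holds the 125 genes, and the cell of 63 holds genes in the window under cool white light and below it under LEDs.

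These 426 genes were chosen on dark and non-cryopreserved libraries alone, so their values under LEDs against cool white light were not used in choosing them. Of the 425 that were tested, edgeR called 40 lower under LEDs than under cool white light (9.41%, where 1.06% of all genes were called lower) and 0 higher (0.377% of all genes). At an unadjusted p under 0.05 the counts were 151 lower and 9 higher, beside 9.94% and 7.21% of all genes. DESeq2 called 61 lower and 1 higher, beside 2.64% and 1.96% of the genes it tested. The 40 became 28 without LED replicate 3, 20 without LED replicate 2, 18, 4 and 11 without cool white replicates 1, 2 and 3, 60 without LED replicate 1, and 25 with the replicate number as a block. Relative to the non-cryopreserved mean, which the choice did use, the median over the 426 genes was 0.548 for the cool white mean and 0.397 for the LED mean. Relative to the cool white mean, the median over the 426 genes was 0.906, 0.751 and 0.562 in LED replicates 1, 2 and 3. At 0.5 times the non-cryopreserved mean or more were 217, 166 and 97 of them in these LED libraries, and 219, 217 and 225 in the cool white libraries.

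The choice was then repeated without each library in turn, and the library left out was read as a ratio. The choice had not used that library, but it had used the group mean on the other side of the ratio. Without dark replicates 1, 2 and 3, the rule gave 122, 128 and 136 genes, and in the dark library left out their median ratio to non-cryopreserved tips was 0.180, 0.206 and 0.222. Of these genes 96, 84 and 92 were at or below 0.25 in that library, or 78.7%, 65.6% and 67.6%, where 3.15%, 3.01% and 3.06% of all genes at 5 CPM or more were. The low dark level was thus present in libraries that had no part in the choice, although the non-cryopreserved libraries were the same. Without non-cryopreserved replicates 1, 2 and 3, the rule gave 118, 118 and 124 genes, and the dark mean over the library left out had a median of 0.185, 0.196 and 0.227.

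For cool white light, the library left out had a median ratio of 0.901, 0.953 and 1.01 over the 117, 129 and 123 genes chosen without it, and 95.7%, 88.4% and 90.2% of these genes were from 0.5 to under 1.5, where 73.1%, 74.7% and 78.4% of all genes at 5 CPM or more were. For LEDs, replicates 1 and 2 had medians of 0.874 and 0.767 over 96 and 119 genes, with 95.8% and 88.2% inside the window, where 81.5% and 73.3% of all genes at 5 CPM or more were. LED replicate 3 had a median of 0.489 over the 149 genes chosen without it, and 72 of them, or 48.3%, were inside the window, where 71.0% of all genes at 5 CPM or more were. These ratios share the non-cryopreserved mean and the window with the choice, so the shares inside the window are a description. The 149 genes include 122 of the 125. Leaving out LED replicate 1 gave the smallest group, 96 genes, of which 95 were among the 125. The groups chosen without non-cryopreserved replicates 1, 2 and 3 shared only 103, 98 and 105 genes with the 125. Those chosen without dark replicates 1, 2 and 3 shared 112, 114 and 115.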

How the data were processed

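Per the labels' protocols, stranded libraries were made from polyadenylated RNA of 12 samples. The authors deposited unnormalized counts of reads for each gene. The submitters' processing notes name TopHat2 2.0.8b, Bowtie 1.1.1 and featureCounts 1.5.0. The sources used here do not give the genome build, annotation, strand setting or handling of multiply mapped reads. Genes that overlap or have close copies therefore have uncertain counts.

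CPM were computed from column totals, in Python 3.11.15 with pandas 2.3.3. Median log2 ratios add 0.1 CPM. Counts were tested in R 4.3.3 with edgeR 4.0.16 (filterByExpr with a minimum count of 10, TMM, quasi-likelihood fit of 4 groups over 12 libraries, two-sided tests, Benjamini-Hochberg adjustment over 19920 genes, threshold 0.05). The fit was tested on simulated data. Within groups, library pairs differed by 2.94 to 19.3 chi-square per degree of freedom, so no library repeats another.

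The genes and alternatives were chosen with earlier results of these data known. With no gene names, identifiers at the ends of each described quantity were named, at most 2 per end, and gene lists and markers given by symbol were not tested. Alternatives were other scalings, group medians, other thresholds, no filter on low counts, DESeq2 1.42.0, a replicate block, and each library left out.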

Additional observations from a re-analysis of the deposited data

How the results depend on the processing

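The number of genes meeting the rule was 125, and lay between 96 and 149 when each library was left out in turn. With a minimum of 1 CPM in non-cryopreserved tips it was 201, and with 20 CPM 65. A dark threshold of 0.333 gave 266 and one of 0.125 gave 17. TMM scaling gave 115 genes (113 of the 125), DESeq2 size factors 116 (111 of the 125) and group medians 122 (96 of the 125). The median log2 ratio of darkness to non-cryopreserved tips was -2.30, lay from -2.34 to -2.24 with a library left out, and was -2.06 with 1 CPM added. That of cool white light was -0.07, lay from -0.16 to -0.045 with a library left out, and was -0.18 with a minimum of 1 CPM. That of LEDs was -0.51 and lay from -0.54 to -0.43. Except with 1 CPM added, the genes were chosen again by the rule for each of these medians. The rule thus bounded the medians, and their narrow ranges are no test of stability. With the 125 genes kept and LED replicate 3 left out, the LED median was -0.33. With the 125 genes kept as chosen, the counts called with a library left out lay from 121 to 125 for darkness against non-cryopreserved tips, 104 to 121 against LEDs, 116 to 122 against cool white light, 0 to 15 for LEDs against cool white light, 40 to 75 for LEDs against non-cryopreserved tips and 6 to 29 for cool white light against non-cryopreserved tips. The 6 calls between LEDs and cool white light were 11 with no filter, 19 with DESeq2 and 2 with the replicate block, and the cause was not tested. Whether replicate numbers pair the libraries was not settled. Of 18 correlations between same-numbered libraries of different groups, 4 were over 0.1, with a range from -0.241 to 0.201. Between differently numbered libraries the range was from -0.218 to 0.208. Apart from the calls between LEDs and cool white light, the block moved no count of calls among the 125 genes by over 1.5 times. The LED median with the 125 genes kept and LED replicate 3 left out, a ratio of 0.794, was an alternative chosen after seeing the data. Of 144 recomputed ratios of named genes, 12 moved by 1 SD or more and 1 changed sign, that of PGSC0003DMG400011777. Dark values of genes with few reads are limited by depth.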
